A study of Mus musculus with 8 samples.

Results

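Genes that mark the principal neurons of the cerebellum were examined in whole brain of mice lacking the deacetylase SIRT1 in the brain (BSKO) and of wild-type littermates (WT). The set was taken by gene symbol. It listed 10 genes, and 9 of them were carried as the single gene symbol of a probe set. These 9 genes had 16 of the 22626 probe sets tested. Of the tested probe sets 20380 had 1 gene symbol, and these stood for 12393 genes. The Purkinje cell genes Pcp2, Car8 and Calb1 had 7 probe sets, and the granule cell genes Cbln1, Cbln3, Zic1, Zic2, En2 and Barhl1 had 9. Itpr1, listed with the Purkinje genes, was not analysed here. Both groups were C57/B6 males aged 3 months, with 4 biological replicates each, and every RNA sample went on 1 Affymetrix Mouse430A_2 array of its own. The labels give neither the driver of the brain-specific deletion nor the deleted part of Sirt1. RNA came from undissected brain, so the cerebellum contributed an unknown share of each sample.

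The cerebellar cortex is built around a pair of neuron types. Granule cells receive mossy fibre input and send parallel fibres to the dendrites of Purkinje cells, which are the only output of the cortex. Purkinje cells rely on calcium release through the inositol trisphosphate receptor encoded by Itpr1, which the Car8 protein binds and dampens, and on the calcium buffer calbindin, encoded by Calb1. Granule cells secrete cerebellin 1, encoded by Cbln1, which bridges neurexins on parallel fibres to the GluD2 receptor on Purkinje cells. Pcp2, Cbln3 and the GABA-A receptor gene Gabra6 are largely restricted to the cerebellum. Others of the set are not: Calb1 is abundant in striatum, hippocampus and cortex, Cbln1 is made in thalamic nuclei, Zic1 and Zic2 in thalamus, septum and meninges, and En2 in the midbrain.

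The deposited values were log2 values set around 0 for every probe set. Such values compare arrays with each other and leave the level of a gene unknown, so the label of cerebellar origin could not be checked against the strength of any marker. On BSKO 2 the spread of all tested values was larger than on the other 7 arrays (SD 0.831, against 0.222 to 0.314 on the other BSKO arrays and 0.150 to 0.220 on the WT arrays). The probe set at the start of beta-actin lay -2.44 from the one at its end on BSKO 2 and -0.104 to 0.489 on the others. Sirt1, the targeted gene, read 0.076, -1.46, -0.20 and -0.059 on BSKO 1 to 4, against 0.0041, -0.0041, 0.082 and 0.29 on WT 1 to 4. BSKO 1 lay among the WT arrays (limma adjusted p = 0.549), and as the deleted part is not stated, its 1 probe set may lie outside it and does not check the labels. Results are given with and without BSKO 2.

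Promoter sequences were available for 4 members, and 1 window per gene is shown because the members differ in this feature while the choice of the set did not use it. Each window covers 250 bases before and 50 bases after the first listed RefSeq start in GRCm38.p6, minus strand, read 5′ to 3′, with each CG dinucleotide in capitals. The windows lie at chr8:3625498-3625797 for Pcp2, chr14:55884207-55884506 for Cbln3, chr9:91365719-91366018 for Zic1 and chr2:28916619-28916918 for Barhl1.
Pcp2: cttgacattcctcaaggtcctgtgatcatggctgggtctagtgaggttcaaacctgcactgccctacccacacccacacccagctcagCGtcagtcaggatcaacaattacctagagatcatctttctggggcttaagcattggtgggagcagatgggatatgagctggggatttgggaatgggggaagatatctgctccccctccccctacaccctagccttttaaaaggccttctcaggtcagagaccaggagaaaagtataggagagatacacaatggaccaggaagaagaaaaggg
Cbln3: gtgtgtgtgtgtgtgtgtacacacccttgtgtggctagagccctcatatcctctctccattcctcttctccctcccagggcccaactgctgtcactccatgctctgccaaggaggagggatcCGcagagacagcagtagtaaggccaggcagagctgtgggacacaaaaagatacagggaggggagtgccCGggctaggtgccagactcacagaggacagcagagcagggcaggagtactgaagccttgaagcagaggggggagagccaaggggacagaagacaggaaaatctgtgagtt
Zic1: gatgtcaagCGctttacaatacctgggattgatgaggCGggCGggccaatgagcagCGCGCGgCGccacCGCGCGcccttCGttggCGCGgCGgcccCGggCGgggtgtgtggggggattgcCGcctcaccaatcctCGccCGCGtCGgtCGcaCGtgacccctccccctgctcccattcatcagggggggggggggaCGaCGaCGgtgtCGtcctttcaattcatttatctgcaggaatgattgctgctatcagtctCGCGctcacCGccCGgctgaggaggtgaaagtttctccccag
Barhl1: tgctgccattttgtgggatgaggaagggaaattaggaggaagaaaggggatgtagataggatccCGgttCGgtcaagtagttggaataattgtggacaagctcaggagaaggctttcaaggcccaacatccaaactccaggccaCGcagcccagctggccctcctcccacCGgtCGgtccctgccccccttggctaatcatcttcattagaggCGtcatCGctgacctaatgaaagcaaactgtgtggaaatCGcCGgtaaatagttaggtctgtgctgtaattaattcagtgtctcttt
The motif searched was CG, which reads the same on both strands. The Zic1 window held 31 CG dinucleotides, and 10.6% of the 32851 windows of 300 bases in the table held at least as many. The Pcp2 window held 1 and the Cbln3 window 2, counts reached by 94.6% and 85.9% of windows, and the Barhl1 window held 9, reached by 45.8%. Thus the windows of the restricted markers Pcp2 and Cbln3 lay below the median of 7 CG per window, and those of the transcription factor genes Zic1 and Barhl1 above it. Pcp2 has 4 listed starts, whose windows hold 1 to 3, and the second Barhl1 window holds 14.

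No cerebellar marker passed the test of genotype. With 8 arrays, none of the 16 probe sets had an adjusted p under 0.05 (limma with Benjamini-Hochberg adjustment over all 22626 probe sets), where 0.0309% of all tested probe sets did. Without BSKO 2 none did either, where 1.63% of all did. At an unadjusted p under 0.05 there were 4 of the 16 in each fit, beside 10.8% and 19.8% of all tested probe sets. Of the 16 differences between genotypes 7 were above 0 and 9 below, with a median of -0.033 beside 0.022 over all tested probe sets. Without BSKO 2 these medians were -0.11 and 0.0089. In whole brain, fewer cells of a type and less RNA per cell cannot be told apart.

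**Figure D1:**
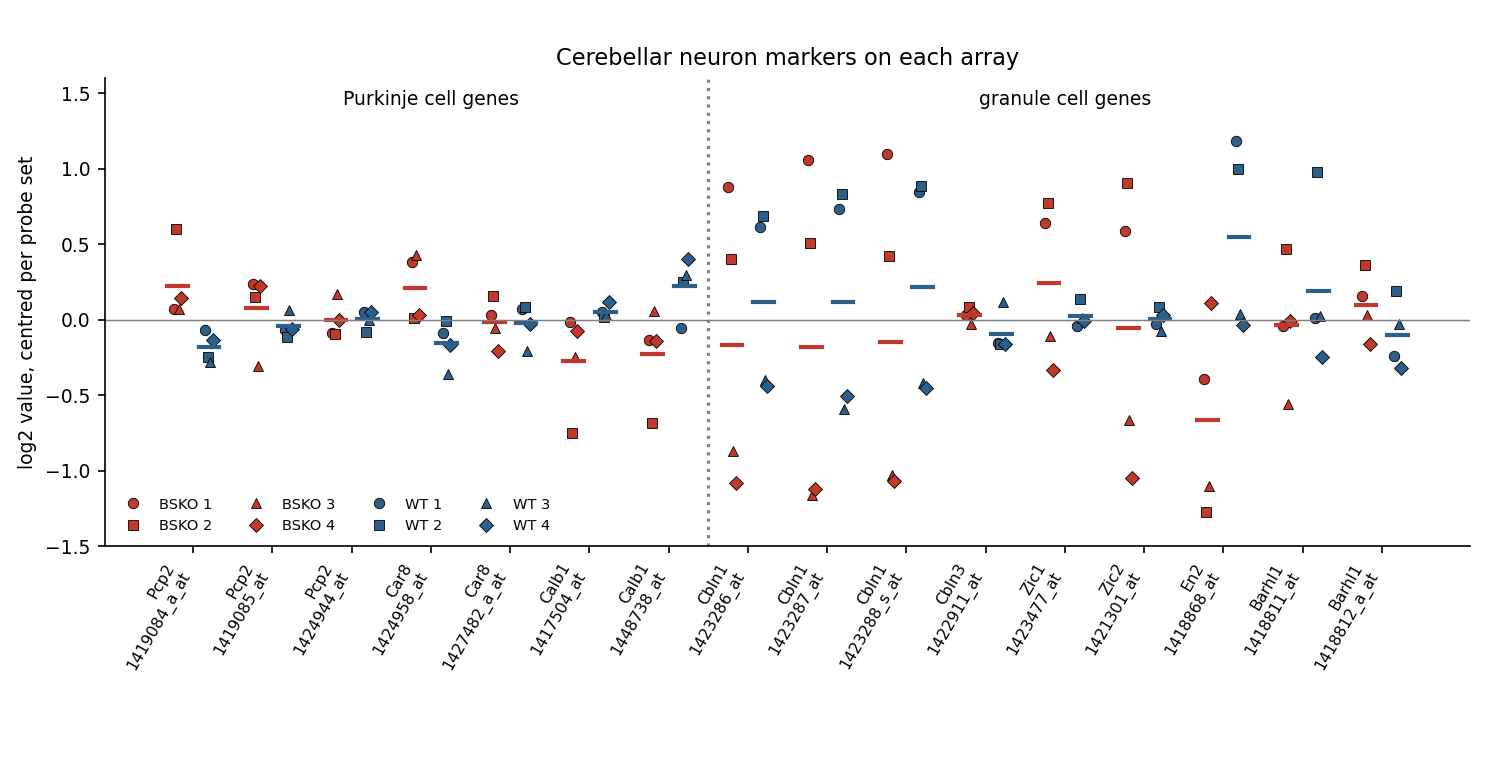
Log2 value (vertical axis, centred per probe set) of the 16 probe sets on the 4 BSKO arrays (red) and the 4 WT arrays (blue). Horizontal bars are group means. The genotypes are separated for 1 probe set each of Pcp2, Car8 and Calb1, while the spread within BSKO is wide for Cbln1, Zic1, Zic2 and En2.

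The genotypes did not overlap for 3 of the 16 probe sets, or 18.8%, where 12.3% of all tested probe sets were separated. All 3 belonged to Purkinje cell genes, 2 of them higher in BSKO (Pcp2 and Car8), where 5.67% of all were, and 1 lower (Calb1), where 6.66% were. Without BSKO 2 the share was again 18.8%, and 19.5% of all tested probe sets were separated.

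Pcp2 (chr8:3623369-3625547 in GRCm38.p6) encodes a Purkinje cell protein that modulates G protein signalling. Its probe set 1419084_a_at read 0.068, 0.60, 0.068 and 0.14 on BSKO 1 to 4, against -0.068, -0.25, -0.28 and -0.13 on WT 1 to 4. Every BSKO array was above every WT array, with a gap of 0.14 between the nearest pair, and BSKO 2 stood far above the other BSKO arrays. The means were 0.22 ± 0.26 in BSKO and -0.18 ± 0.10 in WT (SD, n = 4 each), a log2 difference of 0.40 (SE 0.14, 95% interval 0.080 to 0.72), or 1.32-fold. The adjusted p was 0.377 by limma, and the two-sided exact permutation p was 0.0286, the smallest that 70 arrangements allow, unadjusted for the 16 probe sets looked at. Without BSKO 2 the difference was 0.27 (SE 0.075, adjusted p = 0.112).

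The other probe sets of Pcp2 did not repeat this separation. Probe set 1419085_at read 0.24, 0.15, -0.31 and 0.22 on BSKO 1 to 4, against -0.069, -0.11, 0.060 and -0.060 on WT 1 to 4. BSKO 3 alone of the BSKO arrays lay below the WT arrays, and the difference was 0.12 (SE 0.14, limma adjusted p = 0.706). Probe set 1424944_at differed by -0.0083 (95% interval -0.23 to 0.22, adjusted p = 0.973), the smallest difference of the Pcp2 probe sets. On BSKO 2 the Pcp2 probe sets lay 0.70 apart, their largest gap on any array, and over the arrays the median gap between them was 0.27.

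Car8 (chr4:8141493-8239041 in GRCm38.p6) encodes a carbonic anhydrase relative without enzyme activity that binds the inositol trisphosphate receptor. Its probe set 1424958_at read 0.38, 0.0075, 0.43 and 0.027 on BSKO 1 to 4, against -0.087, -0.0075, -0.36 and -0.17 on WT 1 to 4. The genotypes were separated by only 0.015 between BSKO 2 and WT 2, and BSKO 1 and BSKO 3 were well above the rest. The difference was 0.37 (SE 0.14, 95% interval 0.050 to 0.68, limma adjusted p = 0.418), or 1.29-fold, with an exact permutation p of 0.0286. Without BSKO 2 it was 0.43 (SE 0.12, adjusted p = 0.120). The second Car8 probe set, 1427482_a_at, read 0.028, 0.16, -0.056 and -0.21 on the BSKO arrays, against 0.069, 0.085, -0.21 and -0.028 on the WT arrays. There the genotypes overlapped, with BSKO 2 the highest array, and the difference was 0.0021 (95% interval -0.26 to 0.27, limma adjusted p = 0.994), or -0.057 without BSKO 2.

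Calb1, the calcium buffer (chr4:15881264-15906709 in GRCm38.p6), ran the other way. Its probe set 1417504_at read -0.014, -0.75, -0.25 and -0.078 on BSKO 1 to 4, against 0.052, 0.014, 0.028 and 0.12 on WT 1 to 4. All BSKO arrays were below all WT arrays, but BSKO 1 and WT 2 were 0.028 apart. The difference was -0.33 (SE 0.16, limma adjusted p = 0.501, exact permutation p = 0.0286), and -0.17 without BSKO 2 (SE 0.077, adjusted p = 0.275). Probe set 1448738_at read -0.14, -0.69, 0.053 and -0.14 on the BSKO arrays, against -0.053, 0.25, 0.29 and 0.40 on the WT arrays. It overlapped between BSKO 3 and WT 1, and its difference was -0.45 (SE 0.18, 95% interval -0.85 to -0.048, adjusted p = 0.428, exact permutation p = 0.0571). Without BSKO 2 it was -0.30 (adjusted p = 0.213). The genotypes were thus separated on 1 of 3 probe sets of Pcp2, 1 of 2 of Car8 and 1 of 2 of Calb1. Striatal projection neurons, which also hold Calb1, had a list median (7 measured genes) of 0.059, 0.14, 1.12 and 1.03 on the BSKO arrays and -1.94, -1.79, 0.0057 and -0.084 on the WT arrays. Its part in the Calb1 values was not tested.

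**Figure D2:**
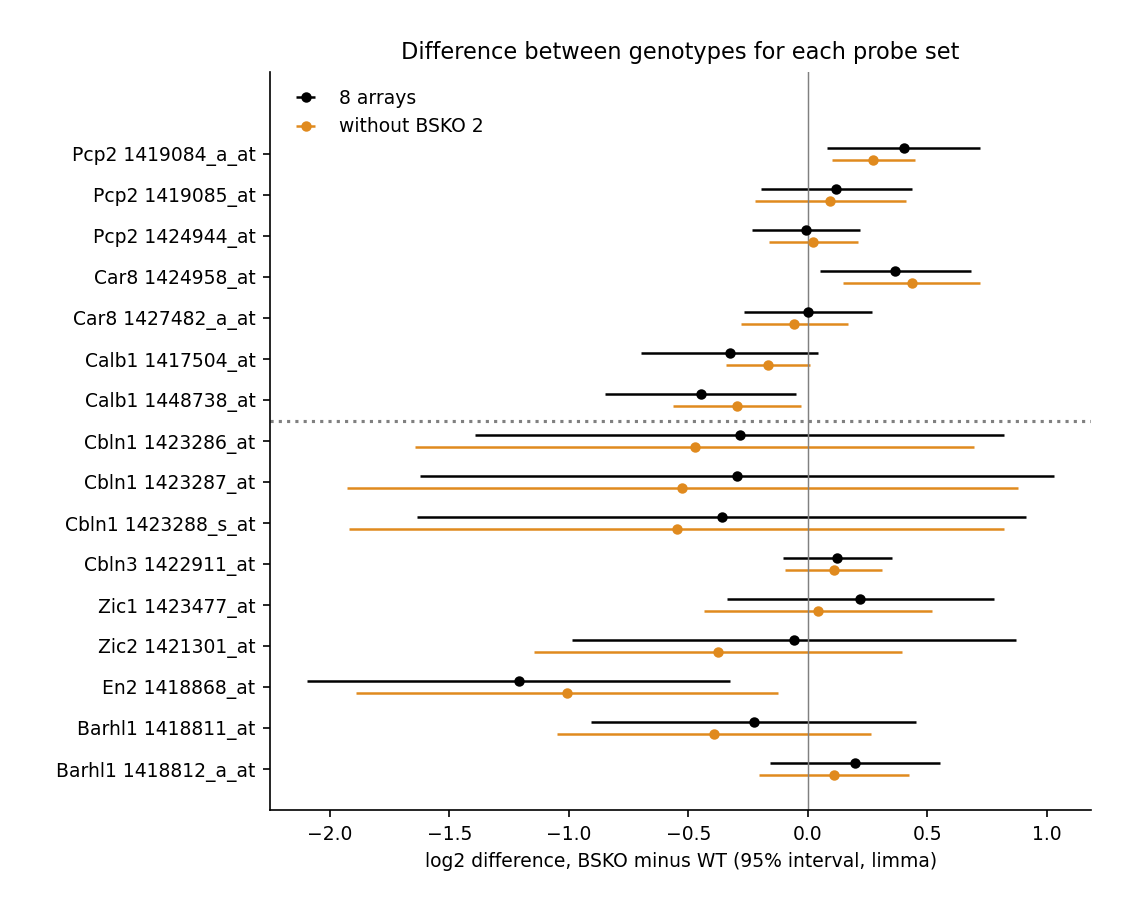
Log2 difference, BSKO minus WT (horizontal axis), with its 95% interval from limma, for each probe set of the cerebellar genes, with 8 arrays (black) and without BSKO 2 (orange). The dotted line divides Purkinje cell genes (above) from granule cell genes (below). The widest intervals in both fits are those of Cbln1, and with 8 arrays the narrowest are those of Pcp2 1424944_at and Cbln3.

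Among the granule cell genes the cerebellins differed from each other. Cbln1, the synaptic organiser (chr8:87468853-87472592 in GRCm38.p6), had 3 probe sets that moved together, never more than 0.29 apart on an array. Their mean was 1.01, 0.44, -1.02 and -1.09 on BSKO 1 to 4, against 0.73, 0.80, -0.47 and -0.47 on WT 1 to 4. In both genotypes replicates 1 and 2 were high and replicates 3 and 4 low, and the genotypes overlapped. The Cbln1 differences were -0.28 to -0.36 over its probe sets (SE 0.48 to 0.58, limma adjusted p = 0.772 to 0.818), and -0.47 to -0.55 without BSKO 2 (adjusted p = 0.643 to 0.672). On probe set 1423287_at, replicates 1 and 2 exceeded replicates 3 and 4 by 1.92 in BSKO and by 1.33 in WT. No label gives a batch that separates these replicates. With this division as a term of the fit, the SE on that probe set was 0.17 for the same difference of -0.30 (adjusted p = 0.509). Within replicates 1 and 2 its genotype difference was 0.00074, and within replicates 3 and 4 it was -0.59.

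Cbln3 (chr14:55878920-55884256 in GRCm38.p6), which encodes a cerebellin of granule cells that is secreted only together with cerebellin 1, was nearly flat. It read 0.028, 0.080, -0.028 and 0.044 on BSKO 1 to 4, against -0.16, -0.16, 0.12 and -0.16 on WT 1 to 4. WT 3 was the highest array and the other WT arrays were the lowest, within a range of 0.28 in all. The difference was 0.12 (SE 0.10, 95% interval -0.11 to 0.35, limma adjusted p = 0.614), and 0.11 without BSKO 2 (adjusted p = 0.530). Gabra6, the granule cell GABA-A receptor subunit, was set beside it. As the mean of its probe sets Gabra6 read -0.10, 0.10, -0.22 and 0.014 on the BSKO arrays and 0.17, 0.090, 0.013 and -0.043 on the WT arrays. Both genes varied over a smaller range than Cbln1. The Gabra6 mean was higher on WT 1 and WT 2 than on WT 3 and WT 4, but on probe set 1417121_at WT 1 (-0.011) was below WT 3 (0.011). Among the BSKO arrays Gabra6 was highest on BSKO 2 and lowest on BSKO 3, and Cbln1 was highest on BSKO 1 and lowest on BSKO 4.

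Zic1 and Zic2 encode zinc finger transcription factors that act in granule cell precursors and persist in granule cells. Zic1 lies at chr9:91358058-91365768 in GRCm38.p6 and Zic2 at chr14:122475384-122480328 in GRCm38.p6. Zic1 read 0.64, 0.77, -0.11 and -0.34 on BSKO 1 to 4, against -0.044, 0.14, 0.013 and -0.013 on WT 1 to 4. Zic2 read 0.59, 0.90, -0.66 and -1.05 on the BSKO arrays, against -0.032, 0.082, -0.075 and 0.032 on the WT arrays. BSKO 1 and 2 were above all WT arrays and BSKO 3 and 4 below them for both genes, whereas the WT arrays lay close together. The SD for Zic2 was 0.95 in BSKO and 0.069 in WT (n = 4 each), and for Zic1 it was 0.55 in BSKO and 0.078 in WT. The genotype means therefore hardly differed, by 0.22 for Zic1 (SE 0.24, limma adjusted p = 0.699) and by -0.058 for Zic2 (SE 0.41, adjusted p = 0.952). Within replicates 1 and 2 the Zic2 difference was 0.72, and within replicates 3 and 4 it was -0.83. For Zic1 these values were 0.66 and -0.22. Whether the genotype difference depends on the replicates was not tested. Without BSKO 2 the difference was 0.043 for Zic1 (adjusted p = 0.930) and -0.38 for Zic2 (adjusted p = 0.567).

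The neighbours of both genes in the genome belong to the same family. In GRCm38.p6 Zic4 lies beside Zic1 on chromosome 9, and Zic5 beside Zic2 on chromosome 14, with 0 protein-coding genes between the members of either pair. As the mean of its probe sets Zic4 read 1.16, 0.11, 0.072 and -0.077 on the BSKO arrays and 0.21, 0.038, -0.18 and -0.29 on the WT arrays. Zic5 read 0.67, 0.40, 0.11 and -0.65 on the BSKO arrays and -0.046, -0.19, -0.12 and -0.047 on the WT arrays. The probe sets behind these means disagreed on BSKO 2, with 0.97 and -0.75 for Zic4 and -0.18 and 0.99 for Zic5. The Zic5 mean on BSKO 4 came from -0.037 and -1.27. On BSKO 1 all 6 probe sets of these 4 ZIC genes were above 0, and this held for 4 on BSKO 2, 3 on BSKO 3 and 1 on BSKO 4, beside 3 each on WT 1 and WT 2 and 2 each on WT 3 and WT 4.

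Markers of thalamic neurons, where Cbln1, Zic1 and Zic2 are also active, were set beside these values. The 7 measured thalamic genes had a median of 0.32, -0.17, -0.92 and -0.42 on BSKO 1 to 4, against 0.18, 0.30, -0.025 and -0.031 on WT 1 to 4. Each of the 7 was higher on BSKO 1 than on both BSKO 3 and BSKO 4, and 6 of 7 were higher on WT 1 and WT 2 than on WT 3 and WT 4. On BSKO 2 the thalamic genes were split around their median of -0.17. There Tcf7l2 read 1.14 as the mean of its probe sets, and Ntng1 read -2.82 on 1426338_a_at and -0.46 on 1449286_at. Cbln1, Zic1 and Zic2 were above 0 on that array. On the WT arrays Zic1 lay between -0.044 and 0.14, and Zic2 between -0.075 and 0.082. Meningeal genes, where Zic1 and Zic2 are also active, had a median over 9 genes of -0.61, -0.51, -0.33 and -0.23 in BSKO and 0.75, 0.69, 0.13 and 0.19 in WT. The part of either tissue in the values of Cbln1, Zic1 and Zic2 was not tested, and values set around 0 do not show which defining markers are absent.

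En2 had the largest genotype difference of the 16 probe sets. The gene (chr5:28165696-28172190 in GRCm38.p6) encodes engrailed 2, a homeodomain factor that patterns midbrain and cerebellum and stays on in granule cells. It read -0.39, -1.28, -1.10 and 0.11 on BSKO 1 to 4, against 1.18, 1.00, 0.036 and -0.036 on WT 1 to 4. WT 1 and WT 2 were high and BSKO 2 and BSKO 3 low, while BSKO 4 lay above WT 3 and WT 4. The means were -0.67 ± 0.64 in BSKO and 0.54 ± 0.63 in WT (SD, n = 4 each), a log2 difference of -1.21 (SE 0.39, 95% interval -2.09 to -0.33). It did not pass over all probe sets (limma adjusted p = 0.342), and the two-sided exact permutation p was 0.0857. Without BSKO 2 the difference was -1.01 (adjusted p = 0.203). Within replicates 1 and 2 it was -1.92, and within replicates 3 and 4 it was -0.50. Its relative En1, which is expressed in midbrain dopamine neurons, read -0.62, -0.0029, -0.66 and 0.41 on the BSKO arrays and 1.85, 1.28, 0.0029 and -0.098 on the WT arrays. En1 was high on WT 1 and WT 2 and low on BSKO 1 and BSKO 3, with BSKO 2 near 0, and it differed by -0.98 (SE 0.46, adjusted p = 0.485). Whether midbrain tissue had a part in the En2 values was not tested.

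Barhl1, a homeobox gene of granule cell precursors (chr2:28907680-28917984 in GRCm38.p6), gave probe sets of opposite sign. Probe set 1418811_at read -0.040, 0.47, -0.56 and -0.011 on BSKO 1 to 4, against 0.011, 0.98, 0.023 and -0.25 on WT 1 to 4. Probe set 1418812_a_at read 0.16, 0.36, 0.028 and -0.16 on the BSKO arrays, against -0.24, 0.19, -0.028 and -0.32 on the WT arrays. WT 2 and BSKO 2 were the highest of their genotypes on both, and on WT 2 the probe sets were 0.79 apart. The differences were -0.23 (SE 0.30, limma adjusted p = 0.738) and 0.20 (SE 0.16, adjusted p = 0.607). Without BSKO 2 they were -0.39 (adjusted p = 0.475) and 0.11 (adjusted p = 0.699).

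**Figure D3:**
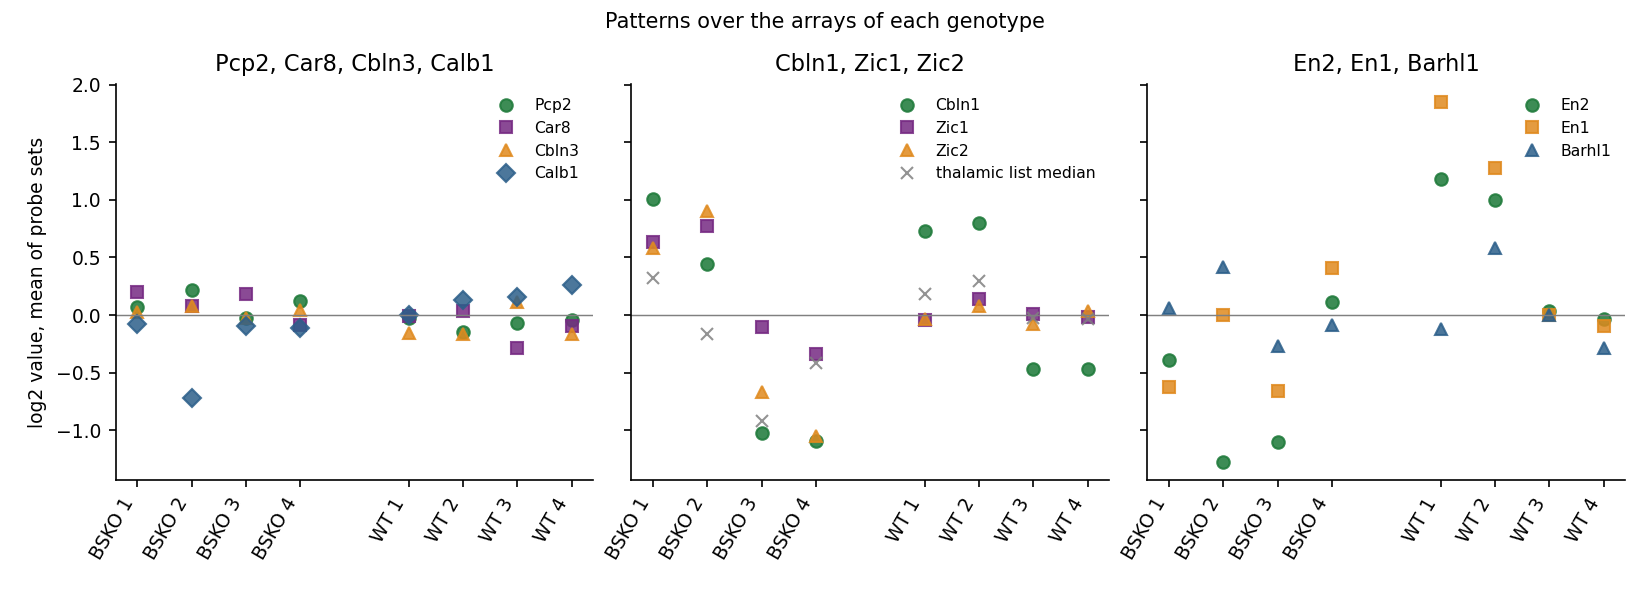
Log2 value (mean of a gene's probe sets, vertical axis) on each BSKO and WT array. The left panel shows Pcp2, Car8, Cbln3 and Calb1, which lie between -0.29 and 0.26 except Calb1 on BSKO 2, the middle panel Cbln1, Zic1 and Zic2 with the median of 7 thalamic genes, and the right panel En2 and Barhl1 with En1.

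Purkinje and granule cell genes were then set against each other on each array. The median over the 3 Purkinje genes was 0.073, 0.083, -0.025 and -0.089 on BSKO 1 to 4, against -0.0092, 0.039, -0.073 and -0.047 on WT 1 to 4. The median over the 6 granule cell genes was 0.32, 0.43, -0.47 and -0.21 on the BSKO arrays, against -0.038, 0.36, 0.0053 and -0.10 on the WT arrays. Purkinje minus granule was -0.25, -0.35, 0.44 and 0.12 in BSKO and 0.029, -0.32, -0.078 and 0.053 in WT. BSKO 1 and 2 lay below 0 and BSKO 3 and 4 above it, and the WT values fell within the BSKO range. The mean of this contrast was -0.0081 ± 0.36 in BSKO and -0.079 ± 0.17 in WT (SD, n = 4 each), a difference of 0.071 that was smaller than either SD. Without BSKO 2 it was 0.18. With Calb1, Zic1 and Zic2 left out of their classes it was 0.47, with Pcp2 and Car8 set against 4 granule cell genes. These medians carry no test. Within replicates 1 and 2 the difference was -0.15, and within replicates 3 and 4 it was 0.29.

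The members fell apart by how much they varied between mice. Over the 7 arrays without BSKO 2 the SD of a probe set had a median of 0.149 over all tested probe sets. It was 0.0877 for Pcp2 1424944_at, 0.116 for Cbln3, 0.118 for Calb1 1417504_at and 0.122 for Car8 1427482_a_at, each under that median. It was 0.801 to 0.955 for the Cbln1 probe sets and 0.784 for En2, larger than for 99.2% or more of all probe sets, and 0.535 for Zic2, larger than for 97.7%. The remaining probe sets of Pcp2, Car8, Calb1, Zic1 and Barhl1 had SDs of 0.164 to 0.470. The highest of these was Barhl1 1418811_at, larger than for 96.5% of all probe sets. In WT alone the SD of Cbln1 1423287_at was 0.770, larger than for 99.7% of probe sets, whereas that of Zic2 was 0.0693, larger than for 28.1%.

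**Figure D4:**
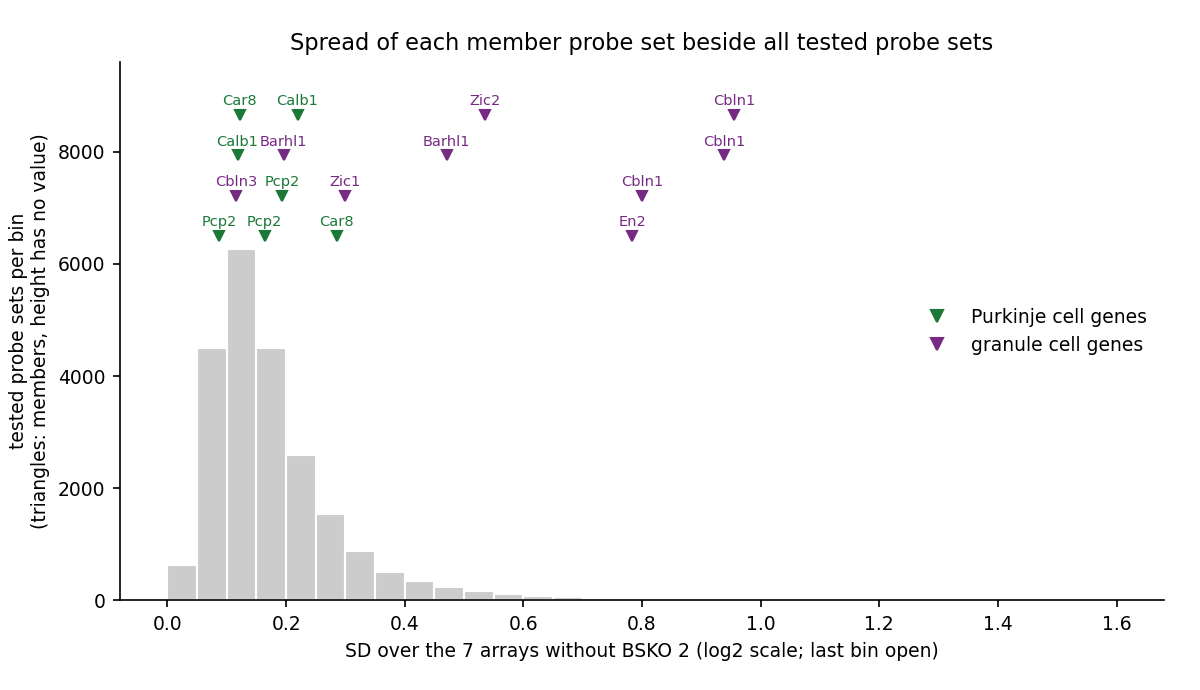
Number of tested probe sets (vertical axis) by SD over the 7 arrays without BSKO 2 (horizontal axis, log2 scale), with triangles for the probe sets of Purkinje cell genes (green) and granule cell genes (purple). Purkinje genes and Cbln3 lie in the bulk of the distribution, and Cbln1, En2, Zic2 and 1 probe set of Barhl1 (1418811_at) in its upper tail.

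Other genes of the same cells and pathways were counted for context. Of 12 probe sets for 8 further Purkinje genes, 0 passed in either fit. The ones with the smallest p were Dner, Pvalb and Slc1a6. Dner, a Notch ligand of Purkinje cells, differed by -0.25 on 1423671_at (limma adjusted p = 0.443). Its other probe set, 1456379_x_at, differed by 0.020 (adjusted p = 0.954), and by -0.12 without BSKO 2. Pvalb, a calcium-binding protein, differed by -0.27 (adjusted p = 0.524), and by -0.16 without BSKO 2. Slc1a6, a Purkinje glutamate transporter, differed by -0.29 (adjusted p = 0.529). Ppp1r17, a phosphatase inhibitor of Purkinje cells that is also made in the hypothalamus, was picked after its values were seen. It read 2.14, 3.35, -0.46 and -0.48 on the BSKO arrays, against -0.19, -0.24, 0.29 and 0.19 on the WT arrays, so that BSKO 1 and 2 stood apart as they did for Zic1 and Zic2.

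Of 14 probe sets for 8 further granule cell genes, 0 passed with 8 arrays and 2 without BSKO 2, both for Neurod1 and both lower in BSKO, where 1.14% of all tested probe sets were called lower. Neurod1, a transcription factor that granule cells share with hippocampal and cortical neurons, fell by 1.37 on probe set 1426412_at in that fit (adjusted p = 0.0159), and differed by -1.55 with 8 arrays (adjusted p = 0.0652). On that probe set it read -0.75, -1.36, -0.81 and -0.42 on the BSKO arrays, against 1.00, 0.84, 0.42 and 0.59 on the WT arrays. The other Neurod1 probe set, 1426413_at, fell by 1.40 without BSKO 2 (limma adjusted p = 0.0235). There BSKO 2 read 0.13, above WT 2 and WT 3, and with it the difference was -1.07 (limma adjusted p = 0.324). Dentate gyrus genes, another population with Neurod1, had a median over 5 genes of -0.25, -0.078, -0.24 and -0.35 in BSKO and 0.72, 0.77, 0.038 and 0.0094 in WT, and their part in the Neurod1 values was not tested. Next by p were Gabrd, a GABA-A receptor subunit gene (0.76, adjusted p = 0.444), and Pax6, a transcription factor gene (0.31 on 1437816_at, adjusted p = 0.485, and 0.20 without BSKO 2). Other Pax6 probe sets had the opposite sign, with -0.48 on 1452526_a_at and -0.26 on 1419271_at.

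In the calcium pathway that Itpr1, Car8 and Calb1 belong to, 28 probe sets for 14 further genes were tested. None passed with 8 arrays, and 2 rose without BSKO 2, where 0.495% of all tested probe sets were called higher. Both encode ryanodine receptors, which release calcium from the endoplasmic reticulum beside the inositol trisphosphate receptors. The list also holds Ryr2, which differed by -0.13 on 1421126_at and by -0.28 on 1450123_at (limma adjusted p = 0.839 and 0.529). Without BSKO 2 these Ryr2 differences were -0.0077 and -0.14. Ryr3 read 0.18, 0.16, 0.20 and 0.29 on the BSKO arrays, against -0.16, -0.20, -0.35 and -0.36 on the WT arrays, a difference of 0.47 (SE 0.094, adjusted p = 0.153) and of 0.49 without BSKO 2 (adjusted p = 0.0318). Ryr1 read 0.25, 0.16, 0.88 and 0.96 on the BSKO arrays, against -0.79, -0.67, -0.16 and -0.21 on the WT arrays, a difference of 1.02 (adjusted p = 0.203) and of 1.16 without BSKO 2 (adjusted p = 0.0482). On both probe sets all BSKO arrays were above all WT arrays, where this held for 5.67% of all tested probe sets. Ryr1 and the striatal list median were both lowest on WT 1 and WT 2 and highest on BSKO 3 and BSKO 4. The part of striatal neurons in the Ryr1 values was not tested. The other Ryr3 probe set, 1452533_at, read 0.19, -1.22, 0.42 and 0.34 on the BSKO arrays and -0.058, 0.058, -0.090 and -0.11 on the WT arrays. There BSKO 2 was the lowest array, and the difference was -0.020 (adjusted p = 0.980), or 0.36 without BSKO 2 (adjusted p = 0.0712). Homer1, a postsynaptic scaffold gene, came next (1.25 on 1425671_at, limma adjusted p = 0.507, and 0.61 without BSKO 2). On that probe set BSKO 2 read 2.87. The other Homer1 probe sets, 1421768_a_at and 1425710_a_at, read -0.67 and -1.07 on BSKO 2. They differed by 0.28 and 0.13 with 8 arrays, and by 0.57 and 0.53 without BSKO 2. Of the cerebellin receptors, Grid1 was measured and differed by 0.013 (adjusted p = 0.972), and by 0.14 without BSKO 2 (adjusted p = 0.430).

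Among 15 probe sets for 9 relatives of the members none passed in either fit. Car10, an inactive carbonic anhydrase like Car8, differed by -0.32 (adjusted p = 0.320, and adjusted p = 0.0953 without BSKO 2), and Itpr2, another inositol trisphosphate receptor, by -0.66 on 1424833_at (adjusted p = 0.494), and by -0.30 without BSKO 2. Itpr2 probe sets 1421678_at and 1427693_at had the opposite sign, with 0.45 and 0.24. Calb2, which encodes calretinin, a relative of calbindin found in granule cells and thalamus, was named after its values were seen. It read 1.02, 1.39, -1.51 and -1.02 on the BSKO arrays, against 0.33, 0.40, -0.33 and -0.44 on the WT arrays, high and low on the same arrays as Cbln1. Of 8 probe sets for 6 genes of other cerebellar cells none passed. There Fabp7, of Bergmann glia, differed by -0.38 (adjusted p = 0.377), Eomes, of unipolar brush cells and olfactory bulb, by 1.37 (adjusted p = 0.414), and Gdf10, of Bergmann glia, by -0.31 (adjusted p = 0.472, and -0.20 without BSKO 2). On Eomes probe set 1435172_at BSKO 1 and BSKO 2 read 2.25 and 2.33, above BSKO 3 and BSKO 4 with 0.50 and -0.022 and above the WT arrays, which lay between -0.17 and 0.022.

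The genes closest to the class medians over the 7 arrays were also taken. For the Purkinje median, whose SD over those arrays was 0.0584, the root mean square difference was 0.0200 for Olfr68, 0.0217 for Olfr672 and 0.0229 for Nr4a3. For the granule median, with an SD of 0.289, it was 0.0841 for Tyrp1, 0.0874 for Tnmd and 0.0918 for Apoa2. These genes were picked from all genes for their small distance. The members lay at 0.106 to 0.152 for the Purkinje genes and 0.176 to 0.632 for the granule cell genes.

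Markers of other brain regions and cell types were tested for the same samples. With 8 arrays no probe set of these lists passed. Without BSKO 2, 1.14% of all tested probe sets were called lower in BSKO and 0.495% higher. Genes called lower in that fit were Tdo2, a dentate gyrus gene (-1.003 on 1419093_at, limma adjusted p = 0.0296), and the meningeal genes Aldh1a2 (-1.28, adjusted p = 0.0375) and Ogn (-1.39, adjusted p = 0.0398). Doc2g, an olfactory bulb gene, was higher (0.61, adjusted p = 0.0398). On 1419093_at BSKO 2 read 0.58, the highest of the 8 arrays, and with it the Tdo2 difference was -0.67 (adjusted p = 0.483). The other Tdo2 probe set, 1449337_at, did not pass without BSKO 2 (-0.47, adjusted p = 0.171). The median difference with 8 arrays was 1.61 for 7 striatal genes, with 7 of 7 above 0, and -1.06 for 9 meningeal genes, with 9 of 9 below 0. It was -0.72 for 5 dentate gyrus genes, -0.55 for 7 thalamic genes, 0.38 for 5 olfactory bulb genes and -0.21 for 4 choroid plexus genes. It was -0.17 for 6 astrocyte genes, -0.14 for 7 cortical genes, -0.055 for 8 hindbrain HOX genes and -0.040 for 5 oligodendrocyte genes, beside 0.030 over all 12393 genes. Without BSKO 2 the medians that moved by over 1.5 times were those of the olfactory bulb (0.17), choroid plexus (-0.43), astrocyte (-0.030), cortical (0.015), HOX (-0.22) and oligodendrocyte genes (0.026), beside 0.015 over all genes. Per gene, the Purkinje members had a median of 0.17, or 0.13 without BSKO 2, and the granule cell members of -0.036, or -0.26 without BSKO 2. The part of these other tissues in the values of the cerebellar genes was not tested.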

How the data were processed

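Whole-brain RNA of 4 BSKO and 4 WT mice was measured on 8 arrays. The submitters' processing notes name RMA, and the authors deposited log2 values for 22690 probe sets. The median over the 8 arrays was within 1e-05 of 0 for 22689 of them, so the values had been centred per probe set, a step that no label records. The 64 control probe sets were left out. Symbols came from the platform annotation, updated by gene number to RefSeq of GRCm38.p6. Of the tested probe sets 20380 had 1 symbol, 691 several and 1555 none.

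The genotype term was fitted in limma 3.58.1 (R 4.3.3) on all 22626 tested probe sets (lmFit, eBayes, two-sided, Benjamini-Hochberg, threshold 0.05), and single members by an exact permutation test over samples. The script was tested on simulated data. The members and gene lists, and the division of replicates 1 and 2 from 3 and 4, were chosen with earlier results of these data known. The rule for named genes took all members, then of each other list the genes called, filled up to 3 by smallest p, and the 3 genes nearest each class median. Alternatives were other normalizations, variance settings, array weights, a replicate block, left-out arrays, other probe sets or genes, and a threshold of 0.10. Values within each pair of replicates, and a fit without BSKO 2 with that division as a term, were added after seeing the data. The number of arrays limits the precision. Figures used matplotlib 3.10.9.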

Additional observations from a re-analysis of the deposited data

Results flagged for a closer look

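Of 38 sets of 4 arrays, taken from the 16 probe sets and the class medians within each genotype, 3 held an array far from the other 3 by Dixon's ratio of gap to range (above 0.829). Chance flags about 1 in 20. For Pcp2 1419084_a_at, BSKO 2 read 0.60, beside 0.068 to 0.14 on the other BSKO arrays. For Pcp2 1419085_at, BSKO 3 read -0.31, beside 0.15 to 0.24 on the others. For Cbln3, WT 3 read 0.12, beside -0.16 on each of the other WT arrays.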

How the results depend on the processing

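No cerebellar probe set changed its call under the alternatives, except Pcp2 1419084_a_at with array weights (0.31, adjusted p = 0.0250, against 0.0708 to 0.755 in its other settings), where BSKO 2 had a weight of 0.0456. The count of called members was 0, and 1 with array weights. The count over all probe sets was 7. It was 678 after quantile normalization, 108 with trend and robust settings, 2617 with array weights, 84 with the division of replicates 1 and 2 from 3 and 4 in the model, 744 with that division and without BSKO 2, and 66 at a threshold of 0.10. Leaving out 1 array at a time gave 0 to 369, the highest without BSKO 2 and the lowest without WT 4. With the replicate number as a block it was 0 of all and 0 of the members (2121 of all at an unadjusted p under 0.05). Same-numbered arrays correlated at 0.0562 to 0.140 after subtracting genotype means, and BSKO 2 and BSKO 4 did not correlate best with their own number, so the numbers were not taken as pairs.

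The Purkinje median differed by 0.033, by -0.091 with the probe set of smallest spread per gene and by 0.18 without Calb1. Purkinje minus granule differed by 0.071, by 0.47 without Calb1, Zic1 and Zic2 but with Cbln1 and En2 kept, and by -0.12 with the probe set of smallest spread. The granule median differed by -0.038, and by 0.025 with that choice. Leaving out 1 array at a time gave 0.0087 to 0.066 for the Purkinje median, -0.17 to 0.12 for the granule median and -0.079 to 0.18 for their contrast. Single probe sets changed sign in at least 1 setting for Zic1, Zic2, both of Barhl1, Cbln1 1423286_at and 1423287_at, Pcp2 1424944_at and Car8 1427482_a_at, none of them past the threshold. No filter on low signal could be applied, since centred values carry no brightness.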
